A study of Mus musculus with 2 samples.

Results

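Resting type 1 conventional dendritic cells (cDC1) of the spleen were compared between WT mice and mice of the genotype H2-Aa cit/cit. Members were chosen by measured values, namely raw counts of unique molecular identifiers (UMIs, each standing for 1 captured transcript). A cell was taken when Xcr1 and Clec9a together had at least 2 UMIs, Siglech had fewer than 5, Ccr7, Fscn1, Socs2 and Cacnb3 together had fewer than 4, and Top2a, Mki67, Birc5 and Pclaf together had fewer than 4. The last 3 conditions set aside plasmacytoid, mature and dividing cells. The rule found 624 of 7814 WT cells and 777 of 11525 cit/cit cells, 1401 of 19339 in all.

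The study asked how dendritic cells (DC) differ when the MHC class II α chain gene H2-Aa is lost. Each genotype was measured by single-cell RNA sequencing in 1 library of 3′ transcripts, made from pooled spleens of 3 naive female mice aged 4 months. The age is that of the sample labels, while the paper's methods give a younger range for mice in general. DC were enriched with a CD11c selection kit, and live CD45.2+ CD11c+ cells were sorted, so cells with little CD11c were lost before measurement. The groups were H2-Aa +/+ (WT) and H2-Aa cit/cit, a chemically induced germline allele that every cell of the mutant mice carries. The files do not tell the pooled mice apart. Cells of 1 library are not replicates, so no difference between genotypes could be tested, genotype and library cannot be told apart, and all 95% intervals cover counting error only.

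cDC1 take up dead cells and present their antigens on MHC-I to CD8 T cells, which is called cross-presentation. They arise under the transcription factors IRF8 and BATF3, bear the chemokine receptor XCR1 and the dead-cell receptor CLEC9A, and are closely tied to immunity against tumors and viruses. MHC-II is a dimer of an α and a β chain that folds in the endoplasmic reticulum (ER) on the invariant chain CD74. Load on ER folding is read by the sensors IRE1, ATF6 and PERK, which drive chaperone genes and, through ATF4 and CHOP, genes of amino acid supply. This set of programs is called the unfolded protein response (UPR).

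The WT cells gave 6979863 UMIs and the cit/cit cells 10364792. Median UMIs per cell were 10294.5 in WT and 13181 in cit/cit, with ranges of 710 to 36624 and 643 to 39695. A median of 3148 and 3672 genes were detected per cell. Median mitochondrial shares were 1.63% and 1.52%, and median ribosomal protein shares 20.01% and 21.4%. Cell quality by these measures was close between the libraries, while depth was higher in cit/cit. The 2 libraries shared 31 cell barcodes, and none of these was a resting cDC1 in both.

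The label held for most members and less well for those with the fewest UMIs of the choosing genes. Levels are given as counts per 1000000 UMIs (CPM), that is, a gene's UMIs summed over the cells of a library, scaled to the sum of all their UMIs. Members with 5 or more UMIs of Xcr1 and Clec9a numbered 352 in WT and 515 in cit/cit. In them Irf8 stood at 1407 and 1566 CPM, and Sirpa, a cDC2 gene, at 32.5 and 27.5 CPM. Members with 2 to 4 UMIs numbered 272 in WT (43.6%) and 262 in cit/cit (33.7%). In these Irf8 stood at only 623 and 503 CPM, Sirpa at 196 and 169 CPM, and cDC2 markers together at 743 and 784 CPM, against 165 and 120 CPM in the higher members. Monocyte markers also summed higher at 2 to 4 UMIs, to 1121 and 616 CPM against 454 and 328 CPM. The members just inside the rule are thus a mixture in these values, and where a ratio given below as past 1.5-fold fell short of it in one group of members, the ratios of both groups stand beside it. Just outside, cells with 1 UMI of Xcr1 and Clec9a, 320 in WT and 559 in cit/cit, had Irf8 at 210 and 108 CPM, against 456 and 239 CPM in the 132 and 151 cells with exactly 2. Few members lay just inside the other thresholds. In WT and cit/cit, 0 and 4 held 4 Siglech UMIs, 9 and 2 held 3 UMIs of the Ccr7 set, and 15 and 12 held 3 of the Top2a set.

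The genes that most set these cells apart from all others in both libraries were those of cDC1. After the choosing genes Xcr1 and Clec9a came Rab7b, a small GTPase of the endolysosome, and Naaa, a lysosomal lipid amidase. Naaa stood at 713 CPM inside and 52.4 CPM outside in WT, and at 565 and 40.7 CPM in cit/cit. The adhesion molecule Cadm1, the thioesterase Ppt1, the scavenger receptor Cd36, the double-stranded RNA sensor Tlr3 and the adaptor Clnk were among the 20 highest. The rest were Gm36723, Itga8, Gcsam, Ifi205, Gm43914, Gpr141b, P2ry14, Plpp1, Ppef2, Snx22 and Pdia5, a protein disulfide isomerase of the ER. Because cells were picked on Xcr1 and Clec9a, this order describes the rule and carries no test.

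Markers of most other cell types were low. Those of pDC summed to 449 and 401 CPM in WT and cit/cit, led by Bst2, with Siglech, which the rule limits, at 4.44 and 6.75 CPM. T cell markers summed to 0.716 and 0.482 CPM and B cell markers to 29.8 and 14.4 CPM. NK markers summed to 84.0 and 91.9 CPM, almost all of it Klrd1, with Ncr1 at 0 in both libraries. Monocyte markers summed to 641 and 389 CPM, led by the lysozyme gene Lyz2 at 453 and 257 CPM (−0.82; −1.30 at 2 to 4 UMIs of the choosing genes and −0.21 at 5 or more) and Treml4 at 121 and 68.0 CPM. Macrophage markers summed to 77.1 and 75.4 CPM over all members, with C1qa at 13.2 and 1.54 CPM and Hmox1 at 19.9 and 60.4 CPM. At 2 to 4 UMIs of the choosing genes their sum was 194 CPM in WT and 79.5 CPM in cit/cit, and at 5 or more 31.5 and 74.2 CPM, so the groups differed in opposite directions. The pDC sums likewise were 668 and 846 CPM at 2 to 4 UMIs and 363 and 280 CPM at 5 or more, and the NK sums 198 and 295 CPM and 39.6 and 36.5 CPM. Plasma cell markers reached 123 and 133 CPM, nearly all Ighm. Hemoglobin and other erythroid markers summed to 958 CPM in WT and 2.70 CPM in cit/cit, but 6677 of the 6688 WT UMIs lay in 5 cells. Only 2 WT cells held 10 or more of these UMIs, so the erythroid ratios describe mainly these 2 cells.

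The transcription factors that make cDC1 were close between the genotypes. Of 20 listed, 18 had at least 20 CPM in either library, the minimum for every count below. None was 1.5-fold or more higher in cit/cit and 2 were lower, with a median log2 ratio of cit/cit to WT of −0.17 (0.23 at 2 to 4 UMIs and −0.29 at 5 or more). Across all 6373 genes that passed the minimum, 507 were 1.5-fold or more higher (7.96%) and 355 lower (5.57%), with a median of −0.02. Batf3 stood at 218 CPM in WT and 205 CPM in cit/cit, Id2 at 597 and 570 CPM, and Zbtb46, a factor of conventional DC, at 254 and 244 CPM (0.35 at 2 to 4 UMIs and −0.19 at 5 or more). Irf8, which sets the cDC1 fate, stood at 1187 and 1338 CPM (log2 ratio 0.17; 0.13 to 0.21). Its ratio was −0.31 at 2 to 4 UMIs of the choosing genes and 0.15 at 5 or more, so its direction depends on the members taken. The 2 lower factors were Relb, of the NF-κB family, at 113 and 71.6 CPM (−0.65; −0.80 to −0.51), and Bcl11a, at 319 and 203 CPM. For Bcl11a the ratio was 0.42 at 2 to 4 UMIs and −1.23 at 5 or more, whereas for Relb it was −0.61 and −0.52, the latter short of 1.5-fold.

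The surface and identity genes of cDC1 were lower in cit/cit cells as a list. Of 26 genes, 25 passed the minimum, 8 were 1.5-fold or more lower and none was higher, with a median of −0.37. Their sum went from 6809 to 5491 CPM. The lowest ratio was that of Cd207 (langerin), a C-type lectin that marks a subset of splenic cDC1, at 28.1 CPM in WT and 1.74 CPM in cit/cit (−4.02; −4.80 to −3.32). Next came Itgae, the αE integrin chain known as CD103, at 78.8 and 20.5 CPM (−1.95; −2.18 to −1.71). Cadm1 stood at 1102 and 670 CPM (−0.72; −0.77 to −0.67), and Cd8a, which gives splenic cDC1 their CD8α, at 209 and 131 CPM (−0.68; −0.79 to −0.57). The others past 1.5-fold were Pianp, Hepacam2, Rtl8b and Rtl8a, with ratios from −1.35 to −0.95. The list was thus uneven. Tlr3 (134 and 128 CPM), Ppt1 (1465 and 1347 CPM) and Rab7b (263 and 284 CPM) were close, and Itgb7, the partner chain of CD103, was at 89.5 and 117 CPM (0.39; 0.25 to 0.53). The choosing genes themselves had log2 ratios of 0.08 for Xcr1 and −0.34 for Clec9a, which the rule partly fixes. Cadm1 was lower at 2 to 4 UMIs and at 5 or more (−0.72 and −0.81), as were Itgae (−1.72 and −2.05) and Cd207 (−4.71 and −3.92).

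**Figure D1:**
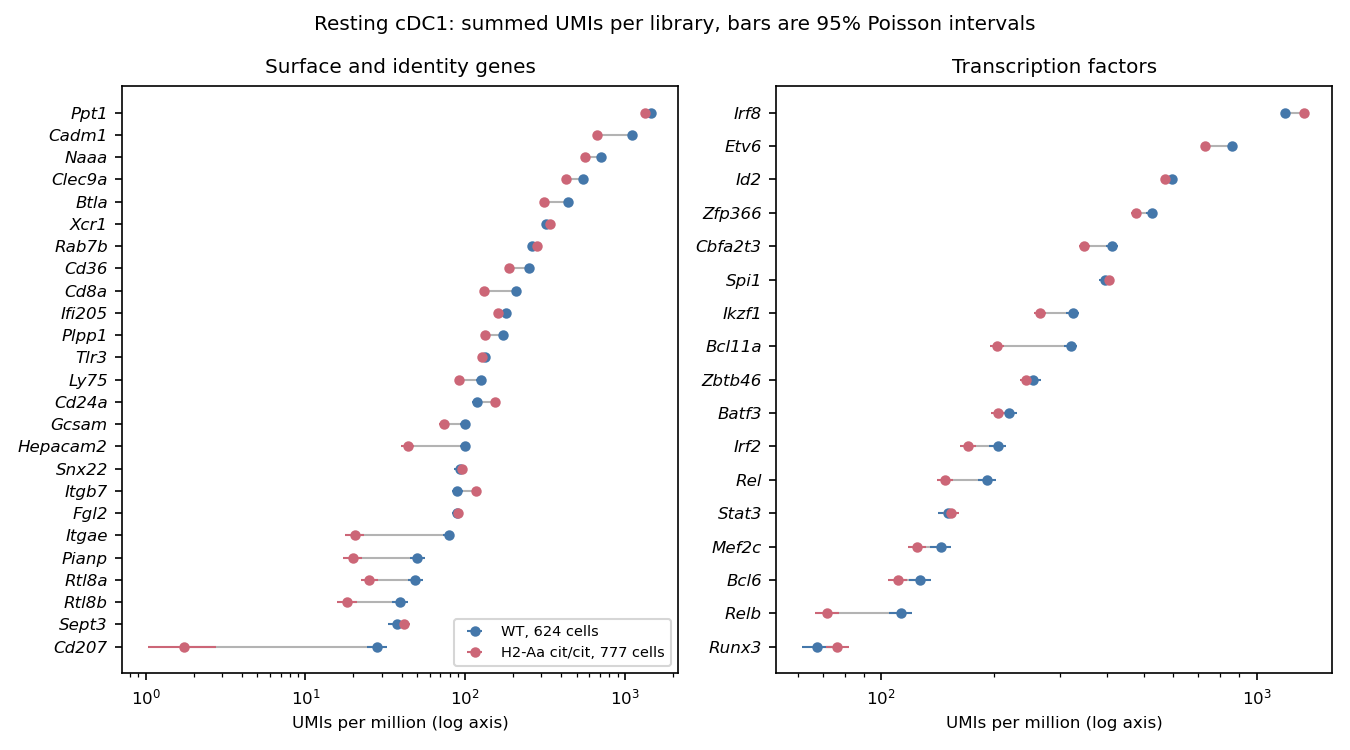
Levels of 25 identity genes (left) and 17 transcription factors (right) of cDC1, in CPM on a log axis, in 624 WT cells (blue) and 777 H2-Aa cit/cit cells (red). Points are levels of 1 library per genotype, horizontal lines are 95% Poisson intervals and gray lines join the libraries. The widest gaps are those of Cd207 and Itgae, while most transcription factors nearly coincide.

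To compare shares of cells at equal depth, each cell was thinned to 3000 UMIs at random. This kept 589 WT and 752 cit/cit cells and left out 35 and 25 shallower ones. A UMI of Itgae remained in 16.8% of thinned WT cells (13.9 to 20.1) and in 3.59% of the cit/cit ones (2.38 to 5.18), or 28.7% and 9.40% before thinning. In cDC2, which should lack it, the thinned shares were 0.670% and 0.677%. Cd207 had one in 7.98% and 0.532%, against 0.258% and 0% of thinned cDC2. Cd8a had one in 38.5% and 21.1%, against 1.50% and 0.733% of cDC2. All 3 genes were above the cDC2 level in WT, and Cd207 in cit/cit came down to 4 of 752 cells, at 0.532% (0.145 to 1.36). Median depths before thinning were 5863 and 6152 UMIs in cDC2, below those of cDC1.

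The mutated gene was all but lost from the cit/cit cells, and its partner genes were not. H2-Aa (ENSMUSG00000036594; GRCm38 chr17:34282744-34287823, minus strand) stood at 7251 CPM in WT and 47.5 CPM in cit/cit (log2 ratio −7.26; −7.39 to −7.13). H2-Ab1, the β chain that pairs with it, was at 7280 and 8893 CPM (0.29; 0.27 to 0.30), and H2-Eb1, the β chain of I-E, at 6388 and 7340 CPM (0.20; 0.18 to 0.22). Cd74 stood at 17946 and 18722 CPM (0.06; 0.05 to 0.07) and Ciita, the master regulator of MHC-II genes, at 727 and 623 CPM (−0.22; −0.27 to −0.17). Of 17 genes of the pathway, 2 were 1.5-fold or more lower and none was higher. The second was Cd83, which holds MHC-II at the surface, at 181 and 109 CPM (−0.73), with −0.05 at 2 to 4 UMIs and −0.94 at 5 or more. After thinning, H2-Aa had a UMI in 99.7% of WT and 11.7% of cit/cit cells, and in 99.6% and 20.9% of cDC2. The labelled genotypes therefore held in the cells examined. H2-Ab1 had a ratio of 0.01 at 2 to 4 UMIs of the choosing genes and 0.38 at 5 or more, Cd74 one of −0.22 and 0.18, and Ciita one of 0.37 and −0.40.

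Genes of MHC-I past 1.5-fold were higher. Of 20 genes tested, 3 were 1.5-fold or more higher and none was lower, with a median of 0.24. The heavy chain H2-K1 stood at 897 CPM in WT and 1306 CPM in cit/cit (0.54), H2-D1 at 1270 and 1512 CPM (0.25), and B2m, their light chain, at 1306 and 1315 CPM (0.01). The immunoproteasome subunit Psmb8 had a ratio of 0.46 and the peptide transporter Tap1 one of 0.40, while Nlrc5, the activator of MHC-I genes, was at 117 and 93.7 CPM (−0.32). At 2 to 4 and at 5 or more UMIs of the choosing genes the ratios were 0.31 and 0.67 for H2-K1, −0.20 and 0.13 for B2m, and 0.22 and −0.49 for Nlrc5. Past 1.5-fold were Tapbpl, a peptide editor, at 32.0 and 66.5 CPM (1.06; 0.56 and 1.14 in the groups with fewer and more UMIs of the choosing genes), and the nonclassical H2-Q7 (1.19) and H2-Q6 (1.36). H2-Q7 and H2-Q6 are near-identical copies whose reads could be split between them, so their values are uncertain.

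Genes of cross-presentation went in no common direction, and its member Apol7c was among the lowest of all genes. Of 24 tested, 3 were 1.5-fold or more higher and 2 lower, with a median of −0.08 (0.03 at 2 to 4 UMIs and −0.16 at 5 or more). Apol7c, an apolipoprotein L that opens the phagosomes of cDC1, stood at 413 CPM in WT and 37.0 CPM in cit/cit (−3.48; −3.64 to −3.33). Thinned, it had a UMI in 48.4% of WT and 7.31% of cit/cit cells, the latter near the 6.82% of cit/cit cDC2. Its ratio was −3.11 at 2 to 4 UMIs and −3.61 at 5 or more. Dnase1l3, a secreted DNase that digests the DNA of dying cells, was at 839 and 348 CPM (−1.27; −1.33 to −1.21). Wdfy4, a BEACH protein needed for cross-presentation of cell-bound antigen, was at 2288 and 1654 CPM (−0.47; −0.50 to −0.44), with −0.01 at 2 to 4 UMIs and −0.60 at 5 or more. Higher were Igtp, an interferon-induced GTPase, at 9.60 and 20.7 CPM (1.10), the ER trafficking SNARE Sec22b at 31.4 and 52.0 CPM (0.73) and Asph (0.61), the last at 0.48 and 0.58 in the groups with 2 to 4 and with 5 or more UMIs.

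**Figure D2:**
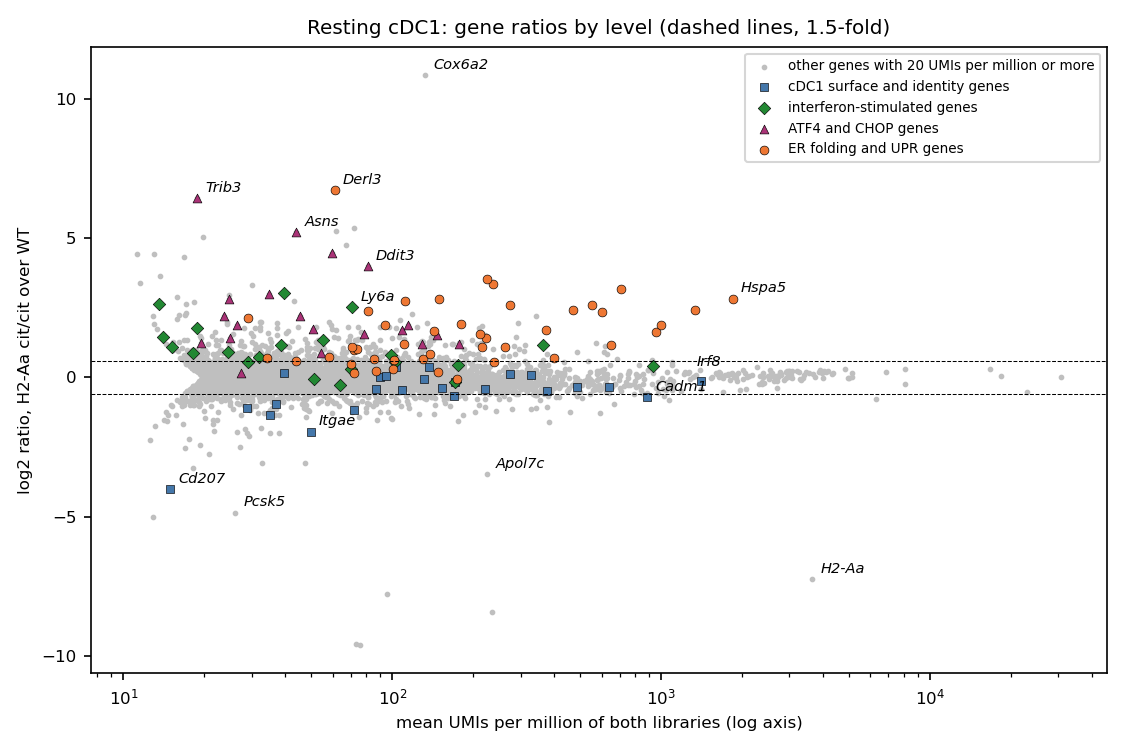
Log2 ratio of cit/cit to WT against mean level (CPM, log axis) in resting cDC1. Drawn are genes with a UMI in both libraries, among the 6373 with at least 20 CPM in either. Bcat1, with no UMI in WT, is therefore not drawn. Dashed lines mark 1.5-fold, and colors mark the ER, ATF4 and CHOP, interferon and identity lists. Most ER and ATF4 genes lie above the upper dashed line, and the 4 lowest gray points are hemoglobin genes, mainly from 2 WT cells.

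Genes of the protein-folding machinery of the ER were for the most part higher in cit/cit cells. All 44 listed genes passed the minimum, and 37 were 1.5-fold or more higher in cit/cit and none lower, with a median of 1.32, against the 7.96% of all genes given above. Together they made up 0.573% of UMIs in WT and 2.07% in cit/cit. Hspa5, the ER chaperone BiP, stood at 453 and 3236 CPM (2.84; 2.78 to 2.89), and Hsp90b1, the chaperone GRP94, at 423 and 2243 CPM (2.41). The calcium-binding lectin chaperones Calr (422 and 1574 CPM; 1.90) and Canx (168 and 355 CPM; 1.08) were also higher.

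Among disulfide isomerases, Pdia4 stood at 42.6 CPM in WT and 433 CPM in cit/cit (3.35), Pdia6 at 199 and 1008 CPM (2.34) and Pdia3, which also serves MHC-I loading, at 464 and 1447 CPM (1.64). Among co-chaperones and secreted UPR products, Creld2 stood at 36.0 and 414 CPM (3.52), Manf at 140 and 1273 CPM (3.19), Sdf2l1 at 155 and 955 CPM (2.62) and Dnajc3 at 149 and 795 CPM (2.42). For the ER-associated degradation of misfolded proteins, Derl3 stood at 1.15 and 121 CPM (6.72; 5.74 to 7.94), Sel1l at 77.7 and 471 CPM (2.60), Syvn1 at 10.7 and 47.4 CPM (2.14) and Herpud1 at 175 and 572 CPM (1.71). The upstream regulators differed less than the chaperones. Xbp1, the IRE1 substrate, was at 66.5 and 105 CPM (0.66; 0.50 to 0.82), or 0.40 at 2 to 4 UMIs and 0.71 at 5 or more, Atf6 at 193 and 287 CPM (0.57) and Ern1, which encodes IRE1, at 90.1 and 111 CPM (0.30). At 2 to 4 UMIs Atf6 and Ern1 were past 1.5-fold (0.75 and 0.77), and at 5 or more short of it (0.51 and 0.15). The 7 members short of 1.5-fold were Atf6, Ern1, Cnpy2, Cnpy3, Ero1lb, Sil1 and Pdia5, the last at 178 and 170 CPM (−0.07; −0.17 to 0.04). The list was higher in both groups of members, with 34 of 44 genes and a median of 1.08 at 2 to 4 UMIs of the choosing genes and 35 of 44 and 1.40 at 5 or more. Of all genes tested in these groups, 830 of 6523 were 1.5-fold or more higher at 2 to 4 UMIs and 578 of 6363 at 5 or more.

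Several of these promoters hold the ER stress response element (ERSE), the letters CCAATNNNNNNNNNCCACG on either strand, which ATF6 and NF-Y bind. RefSeq promoters of GRCm38.p6 were found for 34 of the 44 genes. In the 250 bases before the start, 9 of the 34 held the letters (26.5%), against 37 of 32851 promoters of all genes (0.113%). The list was picked as genes of ER folding and the UPR, so the contrast of these shares carries no test. A match is a description of the sequence and was not tested as a binding site. The sites below are read 5′ to 3′ along the gene's own strand, with the fixed letters of the motif in capitals, and all 10 found in the 9 promoters are shown. Hspa5 (chr2:34772020-34772048), Pdia6 (chr12:17266486-17266514), Creld2 (chr15:88819515-88819543), Dnajc3 (chr14:118937822-118937850), Syvn1 (chr19:6046527-6046555) and Derl3 (chr10:75893237-75893265) lie on the plus strand. Hsp90b1, with sites at chr10:86705633-86705661 and chr10:86705528-86705556, Calr (chr8:84847070-84847098) and Canx (chr11:50325795-50325823) lie on the minus strand.
Hspa5: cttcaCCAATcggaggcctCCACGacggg
Hsp90b1 distal: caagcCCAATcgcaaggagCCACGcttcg
Hsp90b1 proximal: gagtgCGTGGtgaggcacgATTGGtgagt
Pdia6: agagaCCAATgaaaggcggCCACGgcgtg
Calr: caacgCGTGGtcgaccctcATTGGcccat
Dnajc3: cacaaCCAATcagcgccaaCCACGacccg
Syvn1: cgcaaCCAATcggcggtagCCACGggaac
Canx: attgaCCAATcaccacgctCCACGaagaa
Creld2: cttctCGTGGcgagcctcaATTGGtccac
Derl3: tctacCGTGGgacttccccATTGGctagc
The proximal site of Hsp90b1 and those of Calr, Creld2 and Derl3 read in the reverse orientation. The first motif base lay 65 bases before the start in Hspa5, 212 and 107 in Hsp90b1, 98 in Pdia6, 162 in Calr, 105 in Dnajc3, 44 in Syvn1, 145 in Canx, 126 in Creld2 and 156 in Derl3. None of the 19 promoters found for identity genes and none of the 25 for ER translocation genes did.

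Translocation and glycosylation genes, which bring new proteins into the ER, were higher as well. Of 31 tested, 26 were 1.5-fold or more higher and none was lower, with a median of 0.96. At 2 to 4 UMIs of the choosing genes 16 of 31 were higher, and at 5 or more 26 of 31. Krtcap2, a subunit of the oligosaccharyltransferase, stood at 121 CPM in WT and 562 CPM in cit/cit (2.21). The signal sequence receptor Ssr2 was at 74.5 and 214 CPM (1.52), and the translocon subunit Sec61b, the most abundant of the list, at 527 and 839 CPM (0.67), or 0.32 and 0.77 in these groups. Ost4 (−0.34) and Tusc3 (−0.47) had the lowest ratios.

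Most cit/cit cells carried the ER difference. The ER list took a median of 0.453% of a cell's UMIs in WT, with the 5th and 95th percentiles at 0.238% and 1.08%. In cit/cit the median was 1.97%, with percentiles of 0.380% and 3.88%. Of the 777 cit/cit cells, 572 (73.6%) lay above the WT 95th percentile, 79 (10.2%) lay under the WT median, and 3 of 624 WT cells (0.481%) lay above the cit/cit median. The cells of the genotypes therefore overlapped at the low end of cit/cit. The list was higher in cit/cit at every depth, by amounts that differed. Its median was 1.61 in cells under 5000 UMIs (130 WT and 70 cit/cit cells), 1.10 from 5000 to 10000, 1.33 from 10000 to 20000 and 1.30 above. The log2 ratio of its sums was 1.83, 1.33, 1.94 and 1.72 in the same order.

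**Figure D3:**
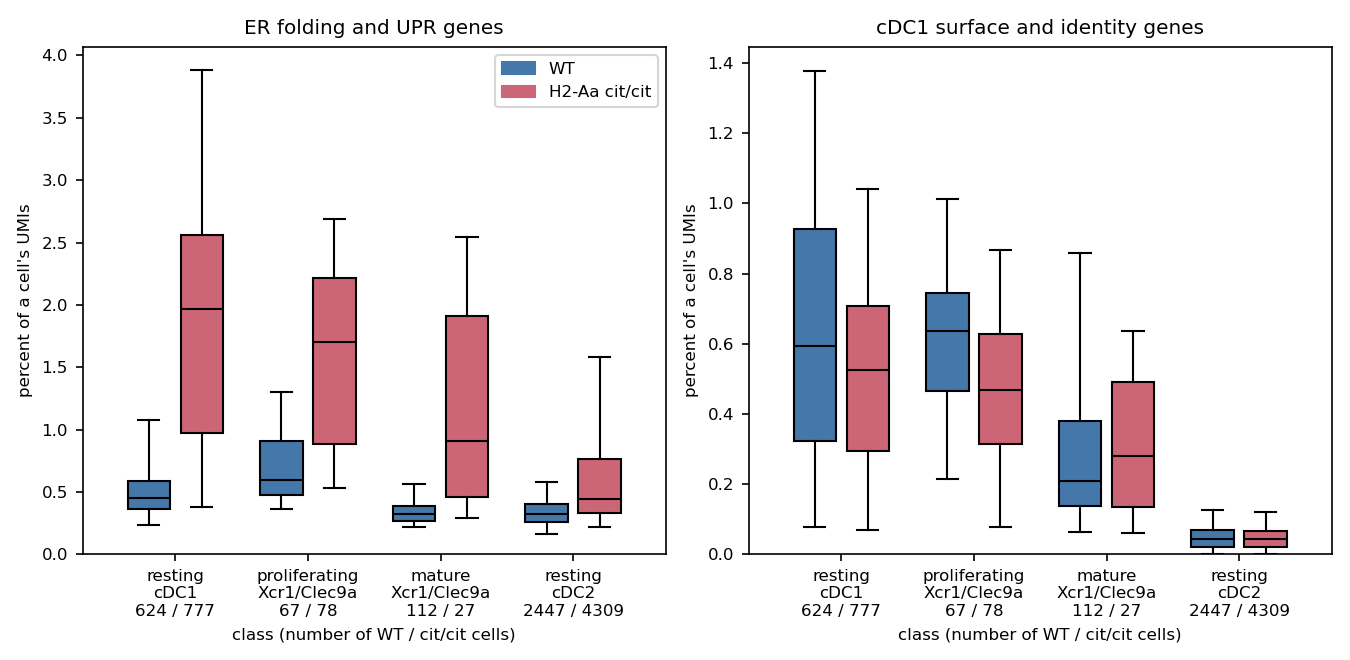
Percent of each cell's UMIs that fell on the ER folding list (left) and the cDC1 identity list (right) in resting, proliferating and mature Xcr1/Clec9a cells and in cDC2 of each library. Boxes span the quartiles with the median as a line, and whiskers run from the 5th to the 95th percentile of cells. In the left panel, the cit/cit box of resting cDC1 lies above the WT whisker for most of its height, and cDC2 differ by less. In the right panel, the cit/cit box of resting cDC1 lies within the WT whiskers.

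The ATF4 and CHOP genes were higher almost without exception. Of 23 listed, 20 passed the minimum and 19 were 1.5-fold or more higher, with a median of 1.81. Atf4 itself stood at 48.7 CPM in WT and 180 CPM in cit/cit (1.88; 1.72 to 2.05), and Ddit3, which encodes CHOP, at 9.46 and 152 CPM (4.01; 3.65 to 4.39). Its pseudokinase target Trib3 was at 0.430 and 37.2 CPM (6.44; 4.88 to 8.72) and Cebpb at 7.74 and 61.7 CPM (2.99; 1.31 at 2 to 4 UMIs of the choosing genes and 3.48 at 5 or more). Genes of amino acid supply went the same way. The asparagine synthetase Asns was at 2.29 and 85.7 CPM (5.22; 4.52 to 6.04), the serine synthesis enzymes Phgdh at 5.16 and 114 CPM (4.47) and Psat1 at 6.16 and 43.3 CPM (2.81), and the amino acid transporter Slc7a5 at 23.2 and 78.1 CPM (1.75). Transfer RNA synthetases were higher too, from 1.19 for Nars to 2.22 for Aars. The exception was Ppp1r15a (GADD34), which returns translation to its resting state, at 25.9 and 28.7 CPM (0.14; −0.13 to 0.42). Below the minimum, Chac1 stood at 0.430 and 14.9 CPM and Slc7a11 at 1.72 and 8.88 CPM.

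The difference in ATF4 and CHOP genes was seen over most of the range of cells. The list took a median of 0.0513% of a cell's UMIs in WT, with quartiles of 0.0333% and 0.0737%, and of 0.194% in cit/cit, with quartiles of 0.0934% and 0.261%. The cit/cit lower quartile thus lay above the WT upper quartile. After thinning, Ddit3 had a UMI in 2.72% of WT and 27.4% of cit/cit cells (3.76% and 10.8% of cDC2), and Asns in 0.340% and 16.2% (0% and 1.58% of cDC2). At least 2 of Ddit3, Trib3, Asns, Phgdh and Psat1 were seen together in 2 of 589 WT cells (0.340%) and 184 of 752 cit/cit cells (24.5%). At 3000 UMIs a cell without a UMI may still hold the RNA, and UMIs from free RNA were not estimated, so these are shares of cells with a UMI and not of cells with the transcript. The composite element of ATF4 and C/EBP factors, the letters TGATGNAA, lay in 5 of 21 ATF4 list promoters (23.8%) against 1134 of 32851 (3.45%). Among the 5 were Chac1 and Slc7a11, which are below the minimum. The letters also lay in 3 of 34 ER list promoters (8.82%), 1 of 19 for identity genes (5.26%) and none of 25 for ER translocation genes. The element is shown for Asns (chr6:7693215-7693242, minus strand) and Gars (chr6:55037961-55037988, plus strand, reverse orientation), with the fixed letters in capitals.
Asns: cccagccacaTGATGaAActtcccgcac
Gars: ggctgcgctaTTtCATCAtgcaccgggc
The first motif base lay 23 and 30 bases before the start.

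Interferon-stimulated genes were higher in part. Of 21 tested, 13 were 1.5-fold or more higher and none was lower, with a median of 0.86, while the factor Irf7 was close. The GTPase Iigp1 stood at 8.60 CPM in WT and 70.2 CPM in cit/cit (3.03; 2.65 to 3.44) but in 1.76% and 9.78% of cells. Ly6a (Sca-1) stood at 21.1 and 121 CPM (2.52; 2.27 to 2.78), Isg15 at 31.1 and 79.6 CPM (1.36) and the T cell chemokine Cxcl9 at 225 and 500 CPM (1.15; 1.07 to 1.24). Cxcl9 had a UMI in 40.9% of WT and 41.1% of cit/cit cells before thinning, shares that lie close together beside its different levels. Cxcl10 was at 23.9 and 53.4 CPM, in 2.72% and 4.76% of cells. Irf7 stood at 52.2 and 49.98 CPM (−0.06; −0.26 to 0.14), or 0.51 at 2 to 4 UMIs of the choosing genes and −0.26 at 5 or more. Thinned, Ly6a had a UMI in 4.75% of WT and 19.5% of cit/cit cells, against 0.722% and 7.30% of cDC2.

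Costimulation and maturation genes past 1.5-fold over all members were lower in these resting cells, whose rule excludes high levels of Ccr7 and Fscn1. Of 17 tested, 7 were 1.5-fold or more lower and none was higher, with a median of −0.30. Cd80, a ligand of CD28, stood at 80.4 CPM in WT and 42.7 CPM in cit/cit (−0.91; −1.09 to −0.73), Traf1 at 114 and 63.1 CPM (−0.85) and Il4i1 at 33.2 and 16.7 CPM (−0.99). Havcr2 (TIM-3), a checkpoint receptor of cDC1, was at 465 and 296 CPM (−0.65; −0.72 to −0.58). Cd80 and Havcr2 were lower only among members with 5 or more UMIs of the choosing genes (−1.22 and −0.84, against 0.05 and 0.10 at 2 to 4). Cd86 (302 and 246 CPM; −0.30), Cd40 (40.4 and 53.4 CPM; 0.40) and Cd274, which encodes PD-L1 (36.8 and 46.3 CPM; 0.33), stayed within 1.5-fold over all members. At 5 or more UMIs Cd40 and Cd274 were past 1.5-fold higher (0.60 and 0.60), and at 2 to 4 near even (0.01 and 0.07), while Cd86 was at −0.44 and 0.15. The list had 2 of 16 genes higher and 4 lower at 5 or more UMIs, beside 578 higher and 641 lower of all 6363 genes there. At 2 to 4 UMIs none of 19 was higher and 6 were lower, beside 830 higher and 183 lower of all 6523. The immediate-early genes, which mark recent signaling and also the handling of cells, had 5 of 19 lower and none higher, with a median of −0.40. All 3 genes named next were past 1.5-fold at 5 or more UMIs of the choosing genes (−1.34, −0.9962 and −1.0025 in this order) and short of it at 2 to 4 (−0.55, −0.54 and −0.26). Dusp1, a phosphatase of MAP kinases, stood at 66.8 and 30.005 CPM (−1.15), Zfp36 at 133 and 71.8 CPM (−0.89) and Jun at 169 and 98.4 CPM (−0.78), while Fos was at 232 and 191 CPM (−0.28; 0.06 at 2 to 4 UMIs and −0.40 at 5 or more) and Atf3 at 56.6 and 64.3 CPM (0.18; 0.62 and 0.04). Whether handling of the samples differed was not tested.

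Receptors and position genes differed with the members taken. At 5 or more UMIs of the choosing genes, 4 of 18 receptors were lower and 1 higher, and 7 of 20 migration and position genes lower and 2 higher, beside 641 lower and 578 higher of all 6363 genes tested there. At 2 to 4 UMIs none of 22 receptors was lower and 1 higher, and 3 of 20 migration and position genes were lower and 3 higher, beside 183 lower and 830 higher of 6523. The growth factor receptors Flt3, on which DC depend, and Kit stood at 410 and 267 CPM (−0.62; −0.70 to −0.54) and 122 and 76.4 CPM (−0.67; −0.82 to −0.53). Both were lower among members with 5 or more UMIs (−0.79 and −0.90) and near even at 2 to 4 (−0.10 and 0.04). In the receptor list 4 of 21 genes were lower and 1 was higher, the latter Socs1, a brake on interferon signaling, at 9.46 and 24.1 CPM (1.35). In the list of migration and position genes 5 of 21 were lower and 2 higher. The chemokine receptors Ccr9 and Cx3cr1 stood at 130 and 45.2 CPM (−1.53; −1.69 to −1.37) and 39.1 and 15.4 CPM (−1.34; −1.63 to −1.05). For Ccr9 the ratio was −0.44 at 2 to 4 UMIs and −1.80 at 5 or more. The integrin chains Itgb2 (157 and 95.4 CPM; −0.72) and Itgav (123 and 79.4 CPM; −0.63) were past 1.5-fold at 5 or more UMIs (−0.92 and −0.75) and not at 2 to 4 (−0.15 and −0.29). The orphan receptor Gpr141 was higher, at 95.4 and 325 CPM (1.77; 1.65 to 1.89), with a UMI in 36.4% and 79.3% of cells. Of 10 cytokine genes, 3 were higher (Cxcl9, Cxcl10 and Ebi3) and 3 lower, the latter Cxcl16 (76.8 and 42.6 CPM; −0.85), Il1b (60.0 and 35.2 CPM; −0.77) and Il15 (61.9 and 41.0 CPM; −0.59). Il1b was at 0.05 and −1.41 and Il15 at 0.80 and −0.88 in the groups with fewer and more UMIs, so Il15 was past 1.5-fold in opposite directions.

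Of 14 genes for dead-cell uptake and lipids, 4 were lower and none higher. Apoe, a lipid carrier, stood at 109 CPM in WT and 40.4 CPM in cit/cit (−1.44; −1.61 to −1.26), the sterol exporter Abcg1 at 69.6 and 25.8 CPM (−1.43) and the fatty acid carrier Fabp5 at 31.8 and 11.1 CPM (−1.52). Abcg1 was at −0.57 at 2 to 4 UMIs, just short of 1.5-fold, and at −1.76 at 5 or more. Among 16 genes of the BCL2 family and cell death, 4 were higher and 2 lower, but none of 15 passed 1.5-fold at 2 to 4 UMIs of the choosing genes. The pro-apoptotic Pmaip1 (NOXA) was at 147 and 52.5 CPM (−1.48; −1.64 to −1.33) and Bcl2l11 (BIM) at 41.0 and 18.04 CPM (−1.18). The anti-apoptotic Bcl2 was at 28.5 and 67.5 CPM (1.24; 1.01 to 1.48), and the pro-apoptotic Bbc3 (PUMA) at 12.8 and 20.3 CPM (0.67). Bcl2a1b, at 269 and 485 CPM (0.85), and Bcl2a1a are near-identical copies and uncertain. At 5 or more UMIs and at 2 to 4 the ratios were −2.02 and −0.32 for Pmaip1, −1.41 and −0.51 for Bcl2l11, 1.52 and 0.55 for Bcl2, 1.10 and 0.06 for Bcl2a1b, and 0.93 and −0.32 for Bcl2a1a.

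Housekeeping groups had medians within 1.5-fold, while some of their members were past it. Of 81 ribosomal protein genes none passed 1.5-fold, and their median was 0.11 (−0.16 at 2 to 4 UMIs of the choosing genes and 0.22 at 5 or more). Nuclear genes of the respiratory chain had a median of 0.11 over 77 tested, with 2 of them higher, Cox6a2 included, and one of −0.07 and 0.18 in these groups. Mitochondrially encoded genes had a median of −0.31 over 13 (0.03 and −0.42 in these groups), with 1 lower, mt-Atp8 (−0.80; −0.53 and −0.89). Glycolysis and hypoxia genes had a median of 0.35 over 16, with Gapdh at 355 and 516 CPM (0.54; 0.04 and 0.68 in these groups) and Pfkp, the platelet phosphofructokinase, at 80.1 and 140 CPM (0.81) as the 1 gene past 1.5-fold. Heat shock genes outside the ER had none of 6 past 1.5-fold, and a median of 0.14. Lysosomal genes had 2 of 23 higher, with the cysteine protease inhibitor Cst3 the most abundant, at 14896 and 18462 CPM (0.31). Cst3 was past 1.5-fold lower at 2 to 4 UMIs (−0.63) and higher at 5 or more (0.44), and the list's sum went from 18638 to 13977 CPM in the former and from 20483 to 26564 CPM in the latter. Of oxidative stress genes, Hmox1 was higher (19.9 and 60.4 CPM; 1.60, or 0.32 and 2.19 in these groups) and Gclc lower (38.1 and 21.3 CPM; −0.84). Of 16 cell cycle genes outside the rule, the inhibitor Cdkn1a (15.3 and 59.2 CPM; 1.95) and Ccnd2 (1.58; 0.82 and 2.50 in these groups) were higher, and Stmn1 (−0.72) and Mcm6 (−0.60) lower. The last 2 were at −0.03 and 0.02 at 2 to 4 UMIs, and at −0.96 and −0.81 at 5 or more.

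**Figure D4:**
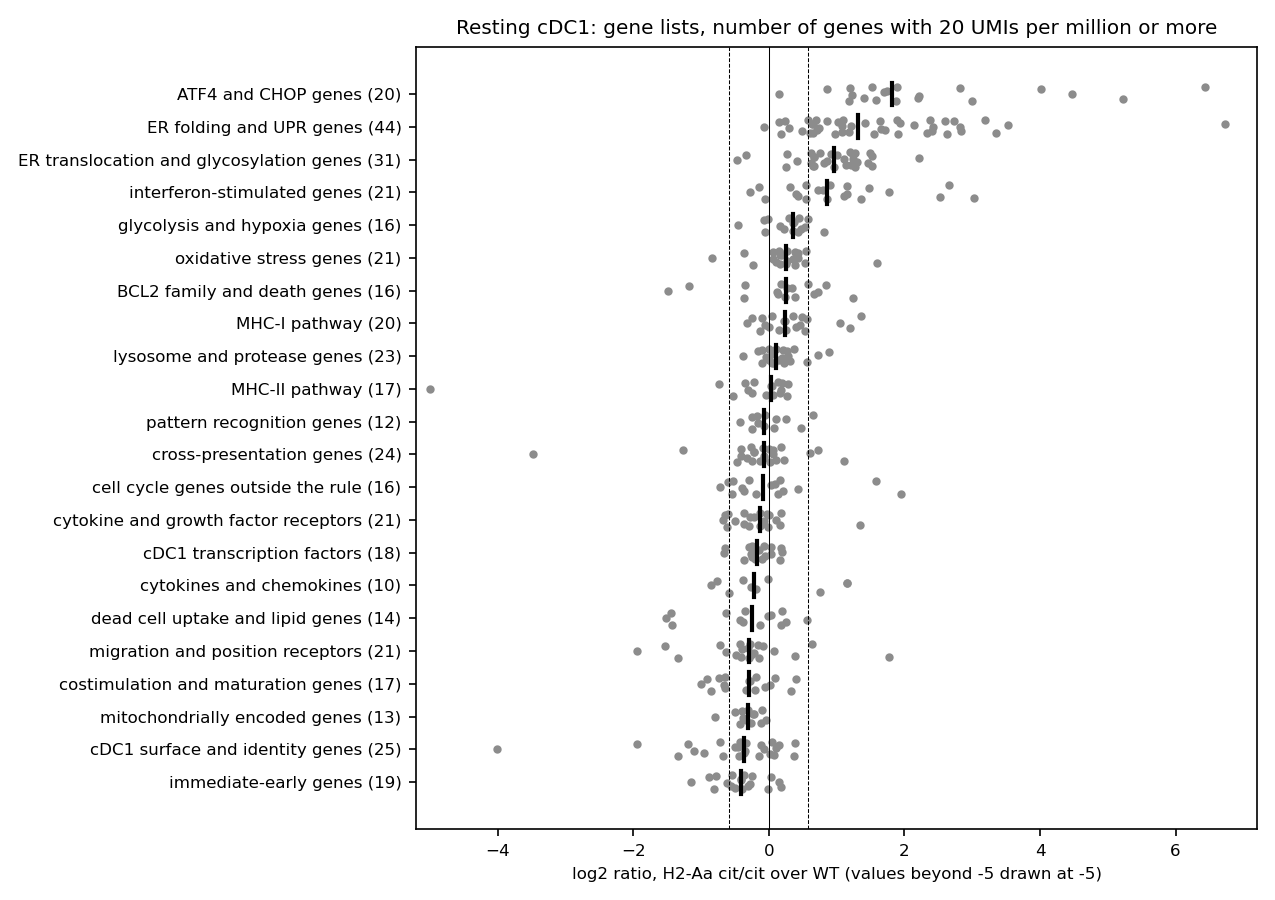
Log2 ratio of cit/cit to WT in resting cDC1 for the members of each of 22 gene lists with at least 10 genes tested, the ribosomal protein and nuclear respiratory chain lists not drawn. Each point is 1 gene, the bar is the list's median, dashed lines mark 1.5-fold, and H2-Aa is drawn at −5 in place of −7.26. ATF4 and CHOP genes and ER folding genes have the highest medians, 1.81 and 1.32.

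Over all genes, 220 were 2-fold or more higher and 98 lower. Transcripts of 16378 genes were seen in WT and of 16867 in cit/cit members. The balance of higher and lower genes at 1.5-fold depended on the cells and the scaling. It was 507 to 355 as given above, 582 to 248 when each cell had the same weight, 746 to 318 after thinning, and 578 to 641 among members with 5 or more UMIs of the choosing genes. With at least 4 UMIs it was 565 to 572, and 593 to 535 where the rule was applied to thinned cells. Among members with 5 or more UMIs the median over all genes was −0.08, and among those with 2 to 4 it was 0.19, with 830 higher and 183 lower genes of 6523. Counts over all genes thus depended on the members taken, while the ER and ATF4 lists had no lower gene in either group of members.

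The 12 highest ratios were taken among genes with a UMI in at least 10% of the cells of the library where they were higher. Bcat1, the cytosolic branched-chain amino acid transaminase, had no UMI in WT and 218 in cit/cit (21.0 CPM), at least 48.9-fold higher when 3 UMIs are taken for WT. Cox6a2, the muscle form of a cytochrome c oxidase subunit, had 1 UMI in WT and 2751 in cit/cit (0.143 and 265 CPM; 10.86, 8.38 to 16.16). It was detected in 48.9% of cit/cit cells, and after thinning in 0.170% of WT and 32.8% of cit/cit cells, against 0.155% and 9.39% of cDC2. Atf5, a relative of ATF4, stood at 3.44 and 141 CPM (5.36), the stress regulator Nupr1 at 3.15 and 121 CPM (5.26), and Chchd10, a mitochondrial protein, at 4.73 and 130 CPM (4.78). The neutral amino acid transporter Slc1a4 (1.003 and 21.5 CPM; 4.42), Angptl6 (1.15 and 24.9 CPM; 4.44) and the p53-linked RNA Trp53cor1 (1.15 and 38.3 CPM; 5.06) had ratios of similar size. Derl3, Trib3, Asns and Phgdh made up the 12. Several ratios were smaller at 2 to 4 UMIs of the choosing genes than at 5 or more, namely 2.95 and 7.09 for Nupr1, 2.72 and 5.47 for Chchd10, 2.58 and 5.53 for Angptl6, 3.44 and 5.47 for Trp53cor1, 4.14 and 5.65 for Atf5, 3.14 and 4.65 for Slc1a4 and 4.90 and 6.76 for Trib3.

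The lowest ratios beside H2-Aa, Cd207 and Apol7c belonged to genes with WT levels from 20.8 to 84.4 CPM. Pcsk5, a proprotein convertase, stood at 50.3 and 1.74 CPM (−4.86; −5.63 to −4.17), the scaffold Homer2 at 32.8 and 3.47 CPM (−3.24) and Trabd2b, a protease that acts on Wnt proteins, at 84.4 and 10.1 CPM (−3.06). The nonclassical MHC-I gene H2-M2 was at 58.3 and 6.95 CPM (−3.07). Most of its WT level came from members with 2 to 4 UMIs of the choosing genes, where it stood at 174.8 and 15.3 CPM (−3.52), against 12.9 and 4.67 CPM (−1.47) at 5 or more, which is under the minimum of 20 CPM. Dkk3 stood at 36.1 and 5.40 CPM (−2.74) and the prostacyclin synthase Ptgis at 28.9 and 6.17 CPM (−2.23). Gm11837 (−2.52), Fcrla (−2.50) and Xlr (−2.26) completed the 12. Ptgis and Gm11837 were at −4.19 and −4.71 at 2 to 4 UMIs, and at −2.03 and −2.33 at 5 or more. In WT these were genes of few cells, with a UMI in 12.02% of cells for H2-M2, 16.0% for Pcsk5 and 26.3% for Fcrla. Most were almost absent from cDC2 of both libraries, with Pcsk5, Homer2, Trabd2b, Dkk3, Gm11837 and Ptgis all under 1 CPM in WT cDC2, while H2-M2 stood at 130 and 57.3 CPM there.

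Resting cDC2 were set beside these cells to see which differences they shared. They were taken as cells with no UMI of Xcr1 or Clec9a, at least 2 of Sirpa and Clec4a4, and few of the markers of other cells, 2447 in WT and 4309 in cit/cit. Across 6643 genes, 135 (2.03%) were 1.5-fold or more higher and 161 (2.42%) lower, fewer than in cDC1. Differences between the classes were not tested. The ER list was higher in cDC2 also, with 23 of 41 genes and a median of 0.71, and the median share of a cell's UMIs was 0.326% in WT and 0.447% in cit/cit, a smaller gap than in cDC1. Hspa5 had a ratio of 1.76 in cDC2 against 2.84 in cDC1, Sel1l one of 0.56 against 2.60 and Ddit3 one of 1.91 against 4.01. The ER ratio was larger in cDC1 for 41 of 44 genes plotted and the ATF4 ratio for 19 of 20. Pdia5 went the other way, from 1.57 to 8.14 CPM in cDC2 (2.38), far below its cDC1 level in both libraries. Interferon genes were higher in cDC2 in 15 of 24, with a median of 0.73, but Cxcl9 was at 16.9 and 16.4 CPM (−0.04). Apol7c stood at 54.4 and 44.8 CPM in cDC2 (−0.28) against its ratio of −3.48 in cDC1, and Dnase1l3 at 490 and 486 CPM (−0.01) against −1.27. H2-Aa was lost in both, with a ratio of −6.31 in cDC2.

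**Figure D5:**
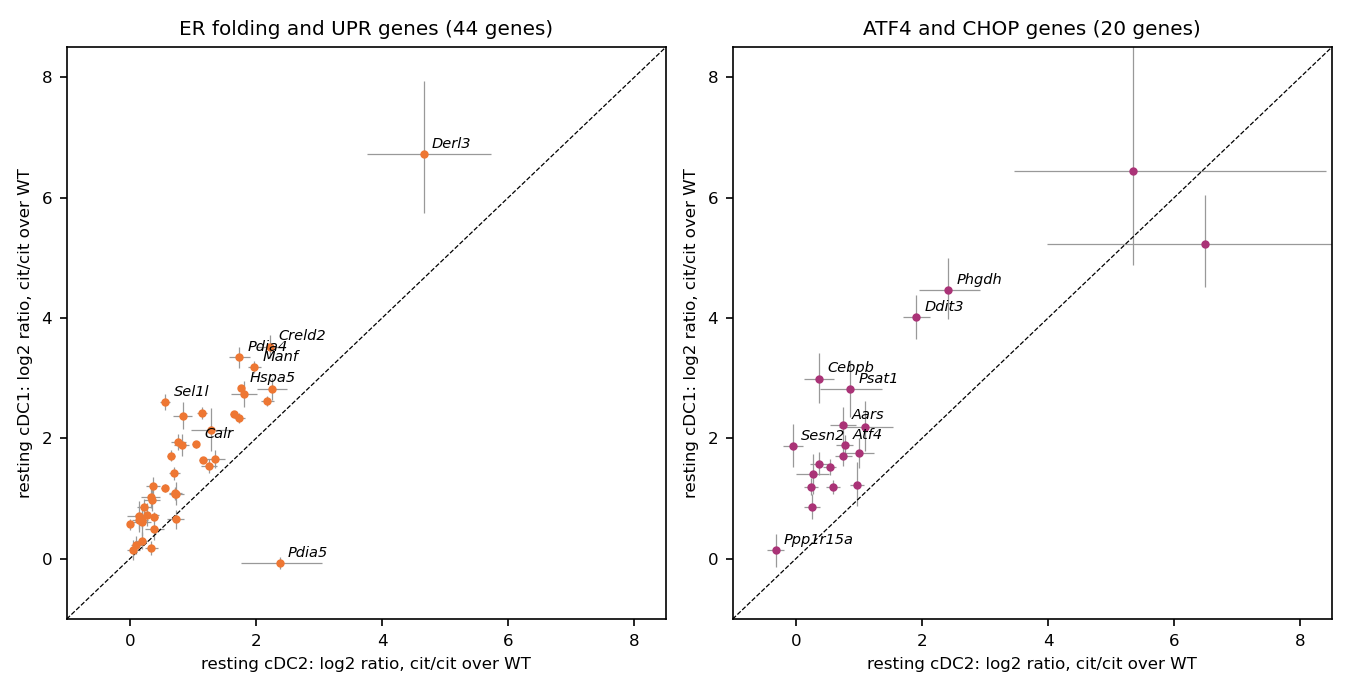
Log2 ratio of cit/cit to WT in resting cDC1 (vertical) against resting cDC2 (horizontal) for 44 ER folding genes (left) and 20 ATF4 and CHOP genes (right), with 95% counting intervals as lines and the diagonal dashed. All but 3 ER genes and 1 ATF4 gene lie above the diagonal, and Pdia5 is the one far below it.

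The dividing and mature cells with the same Xcr1 and Clec9a threshold were few. Proliferating cells numbered 67 in WT and 78 in cit/cit, and 679 of their 6801 genes (9.98%) were 1.5-fold or more higher and 451 (6.63%) lower, from far fewer UMIs than in resting cells. Their ER list had 30 of 44 genes higher and a median of 0.86, their ATF4 list 15 of 17 and 1.33, and their identity list 12 of 25 lower and −0.52. In mature cells, 2331 of 6752 genes (34.5%) were 1.5-fold or more higher and 1250 (18.5%) lower, with only 27 cit/cit cells behind them and a median of 0.23 over all genes. The mature identity list was not lower, with 10 of 21 genes higher, 3 lower and a median of 0.46. The mature ER list had 35 of 44 genes higher and a median of 1.53, and the ATF4 list 19 of 21 higher, 1 lower and 1.66. Apol7c was lower in them as well (−2.50), as was Cadm1 (−1.18). The median share of the ER list was 0.593% in WT and 1.70% in cit/cit proliferating cells, and 0.322% and 0.910% in mature cells. The 3 classes of Xcr1 and Clec9a cells thus all had more ER transcripts in the cit/cit library.

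Resting cDC1 made up 7.99% of the WT library (7.39 to 8.61) and 6.74% of the cit/cit library (6.29 to 7.22), a difference of −1.24 percentage points (−2.01 to −0.495). Proliferating cells made up 0.857% and 0.677% (difference −0.181 points; −0.447 to 0.0661), an interval that includes 0. Mature cells made up 1.43% and 0.234% (−1.20 points; −1.50 to −0.936), 112 and 27 cells. These are shares of sorted CD11c+ cells, set also by the sort and by the number of other cells, and the resting share moved to −0.0362 points when 5 UMIs of the choosing genes were required.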

How the data were processed

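Splenic DC of both genotypes were measured in 1 library each (10X Genomics, 3′). The authors deposited raw UMI counts of each gene in each called cell, obtained with Cell Ranger 5.0.1 on GRCm38 (mm10), with no scaling; the submitters' processing notes also name Seurat. Groups came from the labels. The members and gene lists were chosen with earlier results of these data known. Counts of the cells in a class were added up per library and expressed as CPM, and log2 ratios have exact conditional binomial intervals. Level intervals are Poisson, shares Clopper-Pearson and share differences Newcombe. A gene of the transcription factor list is counted in it but not reported by name here. No test was made with 1 library per genotype. Genes named are the markers and H2-Aa, the 12 highest and 12 lowest ratios with at least 20 CPM and a UMI in 10% of cells, the 20 leading genes of the rule (ranked after adding 5 CPM), and in each list its most abundant, highest and lowest members and those whose role was needed. Doublets were not removed, apart from the alternative. Alternatives varied scaling, depth, the low-level filter and the cells taken; requiring 5 UMIs was added after seeing the data. Python 3.11.15, numpy 2.4.6, scipy 1.17.1, pandas 2.3.3, matplotlib 3.10.9 and scanpy 1.11.5 were used. The ratio script was tested on simulated data. Gene positions came from GENCODE (GRCm38) and promoters from RefSeq (GRCm38.p6).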

Additional observations from a re-analysis of the deposited data

How the results depend on the processing

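No paired analysis was possible because each genotype had 1 library and the shared replicate number pairs nothing. The difference in the resting cDC1 share, −1.24 points, was −0.489 with at least 1 UMI of Xcr1 and Clec9a, −0.478 with at least 4 and −0.0362 with at least 5, and between −1.72 and −1.05 under the other alternatives run. The 507 higher and 355 lower genes became 285 and 192 at a minimum of 50 CPM and 1810 and 2211 with 1 UMI in each library as the filter, by construction of the filters. Lower genes numbered 572 with at least 4 UMIs of the choosing genes, 641 with at least 5 and 535 with the rule on thinned cells; the cause was not tested. Of 308 values for 44 named genes recomputed under 7 alternatives, 263 stayed within the counting interval and 45 moved. Of 223 values for 32 gene lists, 61 were counted as unchanged and 162 as moved. Under these alternatives no value past 1.5-fold among the 44 genes and 32 list medians changed sign, while 9 values of 5 genes (Xcr1, Tlr3, Ppef2, Snx22 and Pdia5) and 15 values of 7 lists within 1.5-fold did. Members with 2 to 4 UMIs alone were not among them, and there Bcl11a, Il15, Bcl2a1a, Il10ra, Cd80, Havcr2, Il1b, Kit, Mcm6 and the median of macrophage markers (1.60 from 1 gene over all members, −2.85 from 5 at 2 to 4) did change sign. The median of the ER list ran from 1.28 to 1.40, of ATF4 and CHOP genes from 1.71 to 1.94, of interferon genes from 0.70 to 0.90 and of identity genes from −0.46 to −0.34. At 2 to 4 UMIs alone these medians lay outside the ranges, at 1.08, 1.31, 0.98 and −0.55 in this order. Among single genes, H2-M2 moved from −3.57 to −1.47 and Nupr1 from 4.30 to 7.56 (2.95 at 2 to 4 UMIs alone). Erythroid markers gave no median after thinning. Depth limits genes under 20 CPM and shares of cells after thinning, and neither mouse-to-mouse spread nor library preparation could be measured.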
